A study of Homo sapiens with 4 samples.

Results

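Transcripts of 9 genes of the NRF2, glutathione and thioredoxin system were measured in JJN3 cells transduced with a short hairpin RNA (shRNA) against WNK1. JJN3 is an established line from a human myeloma, a cancer of plasma cells. In shWNK1 cells NQO1 and GCLM rose, while KEAP1, SRXN1 and PRDX1 fell, and NFE2L2, TXNRD1, TXN and GCLC did not pass the test. The changes of the 9 genes therefore ran in both directions, from a log2 fold change of -1.03 for SRXN1 to 0.76 for NQO1, around a median of -0.03. The 9 genes were given by name, with earlier results of these data known, out of 60682 genes in the count table, and all 9 were among the 14864 genes with enough counts to be tested.

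NRF2, the product of NFE2L2, is a transcription factor that the adaptor KEAP1 normally hands to a CUL3 ubiquitin ligase for destruction. Oxidants and electrophiles modify cysteines of KEAP1, NRF2 then accumulates and binds antioxidant response elements with small MAF partners, and genes of glutathione synthesis, of the thioredoxin system and of quinone reduction are transcribed. Plasma cells secrete large amounts of disulfide-bonded antibody and are known for a heavy load of oxidative protein folding. Because NRF2 is controlled mainly as a protein, transcript levels of NFE2L2 are not a measure of its activity.

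The study asked what changes in transcript levels when WNK1, a with-no-lysine kinase, is knocked down. The knockdown cells carried the shWNK1 hairpin (2 libraries) and their controls the NS hairpin (2 libraries), and all were JJN3 cells grown in a mixture of DMEM and IMDM with fetal bovine serum. A single line was used, each group received an shRNA, and the hairpin sequences are not given in the sources used here. Whether replicates of a group were separate cultures is not stated, and the p-values therefore cover the spread between these 4 libraries alone, which may be technical.

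Total counts were 16973521 and 20164122 in shWNK1 libraries, against 17491537 and 17392619 in NS libraries, so that a floor of 3 counts was worth between 0.149 and 0.177 CPM. CPM here are counts scaled to library sizes that TMM, edgeR's trimmed mean of M-values, had adjusted. WNK1 itself had 18.6 and 19.6 CPM in shWNK1 cells, against 288 and 245 CPM in NS cells, a log2 fold change of -3.80 (edgeR adjusted p = 4.2e-25, SE 0.085) in the direction the labels give. All 8 plasma cell markers (SDC1, TNFRSF17, IRF4, PRDM1, XBP1, CD38, MZB1 and SLAMF7) had at least 1 CPM in every library, summing to 1486 and 1517 CPM in shWNK1 cells and 1816 and 1764 CPM in NS cells. They did not move together: SDC1 had 82 and 91.4 CPM in shWNK1 cells, against 209 and 225 CPM in NS cells, and SLAMF7 had 12.1 and 11.3 CPM in shWNK1 cells, against 1.35 and 1.65 CPM in NS cells. No marker of T and NK, myeloid or erythroid cells reached 1 CPM in every library; the 4 mature B cell markers summed to 2.98 and 3.21 CPM in shWNK1 cells and 8.15 and 6.68 CPM in NS cells. Of the 4 stromal or epithelial markers, COL1A1 and COL1A2 were at or near 0 and EPCAM made up most of a sum of 128 and 134 CPM in shWNK1 cells and 120 and 131 CPM in NS cells. The part of these markers in the results was not tested.

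Promoter sequence was read for the members because NRF2 acts through the antioxidant response element, whose core is TGACNNNGC. RefSeq windows of GRCh38.p14, from 250 bases before to 50 bases after each annotated start, were read for 8 of the 9 genes (all but PRDX1), in 11 windows. The core was searched on both strands, and it was found in 4 of these windows, of GCLM, KEAP1 and TXNRD1, against 4687 of all 35116 windows, or 13.3%. The AP-1 site TGACTCA, which can overlap this core, was found in none of the 8 genes and in 4.95% of all windows. The matches are shown 5′ to 3′ on the strand of the gene, with the core in capitals; a core on the opposite strand reads as its reverse complement. The sites lie at chr1:93909446-93909474 (minus strand) for GCLM, at chr19:10502807-10502835 and chr19:10502784-10502812 (minus strand) for KEAP1, and at chr12:104215670-104215698, chr12:104215761-104215789 and chr12:104286920-104286948 (plus strand) for TXNRD1.
GCLM: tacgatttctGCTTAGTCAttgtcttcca
KEAP1 site 1: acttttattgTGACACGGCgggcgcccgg
KEAP1 site 2: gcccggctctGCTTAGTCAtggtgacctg
TXNRD1 site 1: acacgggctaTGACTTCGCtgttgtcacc
TXNRD1 site 2: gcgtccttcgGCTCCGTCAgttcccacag
TXNRD1 site 3: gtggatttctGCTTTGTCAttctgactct
GCLM and KEAP1 site 2 hold the same 9 letters, GCTTAGTCA, on the strand of the gene. Of the 3 genes with a core, GCLM rose, KEAP1 fell and TXNRD1 did not pass the test. These are too few genes to link match and direction. The part of the matches in the members' changes was not tested. A match is a description of the window, not a bound site, and no match says only that these letters are not in this window.

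A 6-base word, AGTATC, was searched in the annotated 3′ UTRs (the untranslated ends of the mRNAs). It had been named in an earlier description of these same data. Its shares among called genes are therefore not independent of these data and are a description only. It was present in 31.5% of tested genes that fell (883 of 2805 searched), in 15.6% of those that rose (388 of 2489) and in 18.1% of those not called (1189 of 6585). Of the 9 members, KEAP1, NQO1, SRXN1 and TXNRD1 each held 1 copy, shown in capitals on the strand of the gene in hg38, with transcripts of GENCODE v29. They lie at chr19:10486595-10486622 (minus strand) for KEAP1, chr16:69709516-69709543 (minus strand) for NQO1, chr20:646642-646669 (minus strand) for SRXN1 and chr12:104348864-104348891 (plus strand) for TXNRD1.
KEAP1 UTR: gtccaatggggAGTATCattgtttttgt
NQO1 UTR: ttgctctcgacAGTATCcacaatagctg
SRXN1 UTR: tctgtaaatctAGTATCattccaaaata
TXNRD1 UTR: gtcatggctagAGTATCcatgcaaggtg
Of the members with the word, KEAP1 and SRXN1 fell, NQO1 rose and TXNRD1 did not pass the test. The base after it was A in KEAP1 and SRXN1 and C in NQO1 and TXNRD1, too few genes to link base and direction. Over all tested genes, those called lower made up 42.8% of the 1012 genes with the word before an A, 38.9% of the 113 before a G, 36.1% of the 1279 before a T and 30.4% of the 631 before a C, a gene with several copies counting under each base. Of all genes searched for the word 23.6% were called lower, fewer than in any of these 4 classes. A longer 3′ UTR has more places for a word, and UTR lengths were not compared between these sets. NFE2L2, TXN, GCLC, GCLM and PRDX1 lacked the word in 3′ UTRs of 293 (PRDX1) to 3785 (GCLM) bases. The part of this word, or of the base after it, in the members' changes was not tested.

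Of the 9 members, 2 were called higher, or 22.2%, where 18.5% of all tested genes were called higher. Another 3 were called lower, or 33.3%, where 20.2% of all tested genes were called lower. The upward share lies near that of all genes, and the downward share is larger by what 1 or 2 genes of 9 would make. In mean CPM the members stood above 77.9% (NFE2L2) to 98.5% (PRDX1) of tested genes, except SRXN1, above 48.1%. Small changes are called more readily at high counts, and the shares over all tested genes were not matched for level. A gene was called at a Benjamini-Hochberg adjusted p under 0.05 in edgeR's quasi-likelihood test over all tested genes, and 7 of the 9 members had an unadjusted p under that value, as had 46.1% of all tested genes. The number of members called higher was 1 without shWNK1 replicate 1 and 1 without shWNK1 replicate 2, where 10.5% and 10.4% of all genes were called higher. It was 4 without NS replicate 1, where 17% of all genes were called higher. The 2 shWNK1 libraries lay above both NS libraries for NFE2L2, NQO1, GCLC and GCLM, as they did for 34.7% of all tested genes. They lay below both for KEAP1, SRXN1, TXNRD1 and PRDX1, as for 33.7% of all tested genes, and TXN alone overlapped. RNA came from whole cultures, so fewer cells with a transcript and less of it per cell cannot be told apart.

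**Figure D1:**
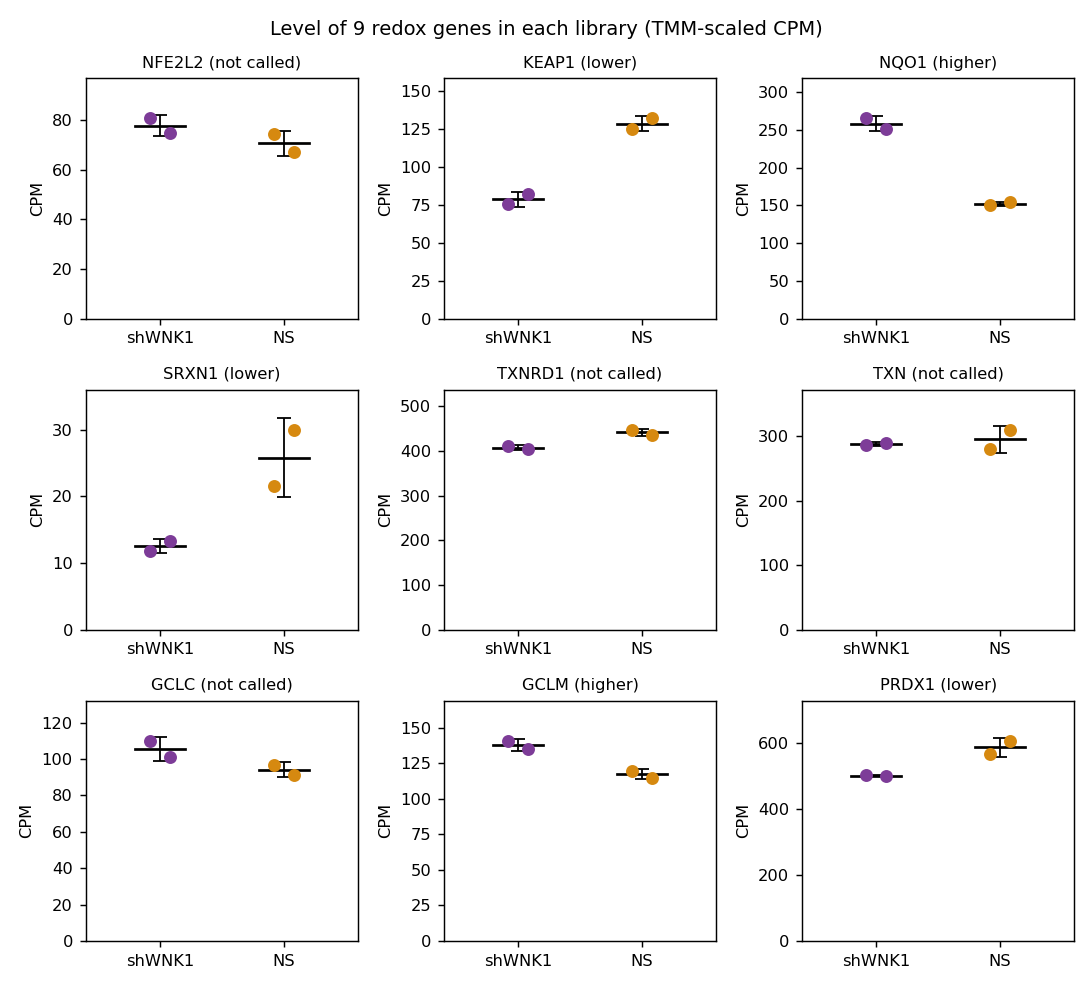
Level of each of the 9 genes in TMM-scaled CPM (linear axes from 0), with 1 point per library, shWNK1 left and NS right, a line at the mean and a bar of 1 SD (n = 2). KEAP1, at 75.3 and 82.0 CPM in shWNK1 cells and 125 and 132 CPM in NS cells, and NQO1, at 265 and 251 CPM against 150 and 154 CPM, show the widest gaps for their spread.

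NFE2L2 (ENSG00000116044.16, chr2:177227595-177392697, minus strand, hg38), which encodes NRF2, had 80.7 and 74.7 CPM in shWNK1 cells, against 74.3 and 67.1 CPM in NS cells. The groups did not overlap, but the lower shWNK1 library and the higher NS library were almost level. Its log2 fold change was 0.14 (SE 0.081, 95% interval -0.03 to 0.30, edgeR adjusted p = 0.193), so it was not called. It was called without NS replicate 1 (0.21, adjusted p = 0.0389), and 21.9% of its exon bases are shared with other genes.

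KEAP1 (ENSG00000079999.14, chr19:10486125-10503558, minus strand), the adaptor that presents NRF2 for ubiquitination, had 75.3 and 82.0 CPM in shWNK1 cells, against 125 and 132 CPM in NS cells. Both shWNK1 libraries were far below both NS libraries, and the difference between the group means was 7.45 times the larger range within a group. KEAP1 fell by 0.71 on the log2 scale, or 1.63-fold (SE 0.072, 95% interval -0.85 to -0.56, edgeR adjusted p = 1.7e-09), and 82.5% of tested genes changed by less in either direction. KEAP1 shares no exon bases with another gene of the table.

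The ratio of NFE2L2 to KEAP1 transcripts, each per kilobase, was 0.675 and 0.574 in shWNK1 cells, against 0.373 and 0.321 in NS cells. It was 1.8-fold higher in shWNK1 cells, a log2 difference of 0.85 that the fall of KEAP1 mostly makes up. The groups did not overlap, and the exact two-sided permutation p was 0.333, the smallest that 2 libraries against 2 allow.

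NQO1 (ENSG00000181019.13, chr16:69706996-69726668, minus strand) encodes NAD(P)H quinone dehydrogenase 1, which reduces quinones without forming radicals and is a standard readout of NRF2 activity. It had 265 and 251 CPM in shWNK1 cells, against 150 and 154 CPM in NS cells, with both shWNK1 libraries well above both NS libraries. NQO1 rose by 0.76 on the log2 scale, or 1.7-fold (SE 0.062, 95% interval 0.64 to 0.89, edgeR adjusted p = 9.2e-12), and 84.8% of tested genes changed by less. Its exons share 19.4% of their bases with an unnamed gene on the opposite strand (ENSG00000261602) that had 0 counts in all 4 libraries.

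**Figure D2:**
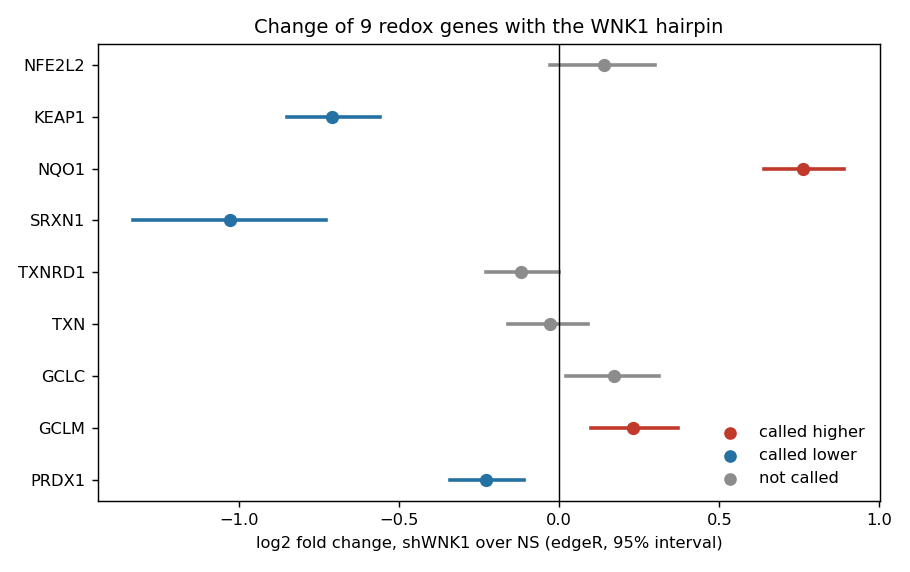
Log2 fold change of each of the 9 genes, shWNK1 over NS, from edgeR's quasi-likelihood test (points), with 95% intervals derived from its F statistic (bars). Red marks genes called higher, blue genes called lower and grey genes not called. NQO1 (0.76) lies to the right, KEAP1 (-0.71) and SRXN1 (-1.03) to the left, and the other 6 genes lie between -0.23 and 0.23.

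Glutamate-cysteine ligase makes the first and rate-limiting step of glutathione synthesis, with GCLC as its catalytic and GCLM as its modifier subunit. GCLC (ENSG00000001084.13, chr6:53497341-53616970, minus strand) had 110 and 101 CPM in shWNK1 cells, against 96.9 and 91.1 CPM in NS cells. GCLM (ENSG00000023909.10, chr1:93885199-93909456, minus strand) had 141 and 135 CPM in shWNK1 cells, against 120 and 115 CPM in NS cells. Neither subunit's groups overlapped, and for both the shWNK1 libraries were the higher ones.

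GCLM rose by 0.23 on the log2 scale, or 1.18-fold (SE 0.067, 95% interval 0.10 to 0.37, edgeR adjusted p = 0.0053). Without shWNK1 replicate 1 or 2 its value was 0.21 or 0.26, and the call was lost. Fewer of all tested genes were called in those fits too, so the loss is not particular to GCLM. GCLC had a log2 fold change of 0.17 (SE 0.073, 95% interval 0.02 to 0.31, unadjusted p = 0.0302, edgeR adjusted p = 0.0718) and was not called, though it was with upper-quartile scaling (0.21, adjusted p = 0.025) and without NS replicate 1 (0.21, adjusted p = 0.0175). A call for one subunit and not for the other does not show that they differ. Their ratio, GCLC over GCLM per kilobase, was 0.491 and 0.47 in shWNK1 cells, against 0.509 and 0.5 in NS cells, a log2 difference of -0.07 (exact two-sided permutation p = 0.333, the smallest possible). Per kilobase of all annotated exon bases (8618 for GCLC and 5426 for GCLM), GCLC stood below GCLM in all 4 libraries, by nearly the same factor. The isoforms expressed were not determined, so which subunit's transcript was the more abundant is not known.

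Thioredoxin, the product of TXN, reduces protein disulfides and peroxiredoxins, and thioredoxin reductase 1, the selenoprotein encoded by TXNRD1, recharges it with NADPH. TXN (ENSG00000136810.13, chr9:110243810-110256507, minus strand) had 286 and 290 CPM in shWNK1 cells, against 280 and 310 CPM in NS cells. The shWNK1 values lay between the NS values, and the log2 fold change was -0.03 (SE 0.061, 95% interval -0.16 to 0.09, edgeR adjusted p = 0.707). Its sign turned with upper-quartile scaling (0.01) and without NS replicate 2 (0.05), so no direction is given for TXN. Its 7 named pseudogenes held counts equal to only 0.0525% of those of TXN.

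TXNRD1 (ENSG00000198431.16, chr12:104215779-104350307, plus strand) had 411 and 404 CPM in shWNK1 cells, against 448 and 437 CPM in NS cells. The shWNK1 libraries were slightly lower and the groups did not overlap. The log2 fold change was -0.12 (SE 0.057, 95% interval -0.23 to -0.00, unadjusted p = 0.0428, edgeR adjusted p = 0.0955), which was not called, though it was without NS replicate 2 (-0.13, adjusted p = 0.0342). The ratio of TXN to TXNRD1 per kilobase was 4.61 and 4.78 in shWNK1 cells, against 4.15 and 4.71 in NS cells, and these groups overlapped (log2 difference 0.09, exact two-sided permutation p = 0.667).

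PRDX1 (ENSG00000117450.14, chr1:45511036-45523047, minus strand) encodes peroxiredoxin 1, a cytosolic enzyme that reduces hydrogen peroxide at a reactive cysteine and is in turn reduced by thioredoxin. It had 503 and 500 CPM in shWNK1 cells, against 567 and 608 CPM in NS cells, with both shWNK1 libraries below both NS libraries. PRDX1 fell by 0.23 on the log2 scale, or 1.17-fold (SE 0.057, 95% interval -0.34 to -0.11, edgeR adjusted p = 0.0016). Without shWNK1 replicate 1 or 2 the value stayed at -0.23 while the adjusted p was 0.0763 or 0.0755. MMACHC, on the opposite strand, shares 25.2% of the exon bases of PRDX1 and had 2866 counts over the 4 libraries, against 39004 for PRDX1, and the counting did not use strand.

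SRXN1 (ENSG00000271303.2, chr20:646615-653200, minus strand) encodes sulfiredoxin 1, which restores peroxiredoxins whose reactive cysteine has been overoxidised. It had 206 and 274 counts, or 11.8 and 13.3 CPM, in shWNK1 cells, against 368 and 507 counts, or 21.6 and 30 CPM, in NS cells. The shWNK1 libraries were close to each other and below both NS libraries, which differed from each other by more. SRXN1 fell by 1.03 on the log2 scale, or 2.04-fold (SE 0.148, 95% interval -1.33 to -0.73, edgeR adjusted p = 1.4e-06), the largest change of the 9, and 92.0% of tested genes changed by less. The fall was 0.77 on the log2 scale without NS replicate 2 and 1.25 without NS replicate 1, and it was called in both cases.

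Most of SRXN1 could not be counted. Of its 2528 exon bases, 2292, or 90.7%, also belong to a gene of the same strand listed as ENSG00000270299, and the recorded command did not ask for reads that overlap several genes to be counted. That left 236 bases shared with no other gene. Exon 1 (chr20:652976-653200) has only 225 bases, so most shared bases lie in exon 2 (chr20:646615-648917). The AGTATC copy also lies in exon 2. The neighbouring entry itself had 18 counts over the 4 libraries.

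The ratio of SRXN1 to PRDX1 per kilobase was 0.0140 and 0.0159 in shWNK1 cells, against 0.0226 and 0.0293 in NS cells. It was 1.73-fold lower in shWNK1 cells (log2 difference -0.79, exact two-sided permutation p = 0.333, the smallest possible), with no overlap between the groups. The ratio between groups is free of gene length, but its level carries the uncounted bases of SRXN1.

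**Figure D3:**
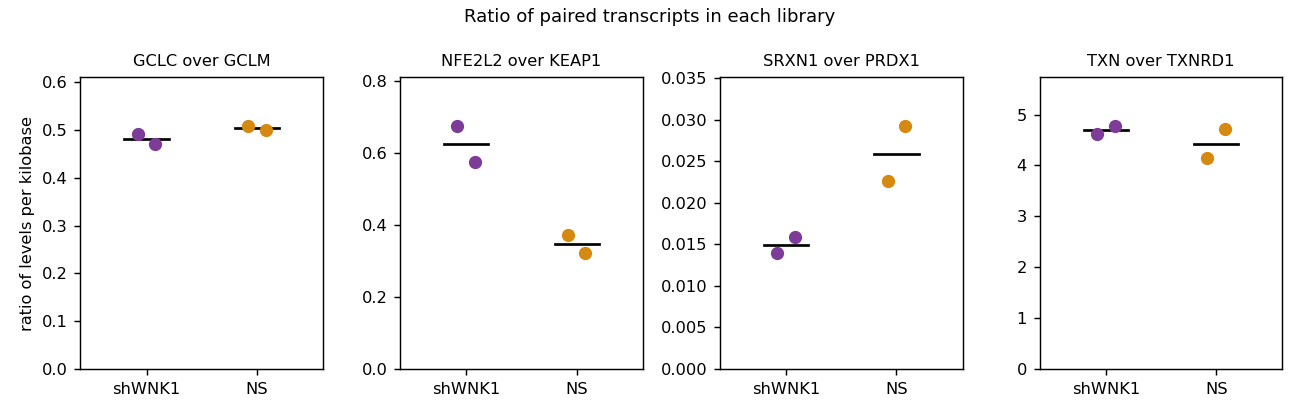
Ratio of the levels per kilobase of 4 pairs of partner genes in each library (points; linear axes from 0; lines at the group means), shWNK1 left and NS right. NFE2L2 over KEAP1 is higher in both shWNK1 libraries (0.675 and 0.574) than in both NS libraries (0.373 and 0.321), SRXN1 over PRDX1 is lower, GCLC over GCLM lies between 0.470 and 0.509, and TXN over TXNRD1 overlaps.

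Per kilobase of exon (RPKM, from TMM-scaled library sizes), the members spanned a wide range in both groups. PRDX1 averaged 333 ± 1.67 RPKM in shWNK1 cells and 391 ± 18.9 RPKM in NS cells (SD, n = 2 each), and TXN 285 ± 3.13 RPKM in shWNK1 cells and 292 ± 21.2 RPKM in NS cells. At the low end GCLC averaged 12.2 ± 0.715 RPKM in shWNK1 cells and 10.9 ± 0.475 RPKM in NS cells, and NFE2L2 13.7 ± 0.741 RPKM in shWNK1 cells and 12.5 ± 0.899 RPKM in NS cells. By this measure PRDX1 and TXN stood highest and NFE2L2 was among the lowest. The length used was that of all annotated exon bases, 5671 for NFE2L2. A shorter expressed isoform would raise a gene's level, and the isoforms expressed were not determined.

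By that length, the order in shWNK1 cells from high to low was PRDX1, TXN, NQO1, TXNRD1, GCLM, KEAP1, NFE2L2, GCLC and SRXN1. In NS cells TXNRD1 stood above NQO1 and KEAP1 above GCLM, and the rest of the order was the same. NQO1 averaged 86.8 ± 3.31 RPKM in shWNK1 cells and 51.1 ± 0.957 RPKM in NS cells, beside TXNRD1 at 60.7 ± 0.828 RPKM in shWNK1 cells and 66.0 ± 1.11 RPKM in NS cells. KEAP1 averaged 22 ± 1.32 RPKM in shWNK1 cells and 36 ± 1.2 RPKM in NS cells, beside GCLM at 25.5 ± 0.693 RPKM in shWNK1 cells and 21.6 ± 0.677 RPKM in NS cells. Among neighbours in these orders only the ranges of GCLC and SRXN1 in NS cells overlapped. SRXN1 stood last at 4.97 ± 0.425 RPKM in shWNK1 cells and 10.2 ± 2.35 RPKM in NS cells, but per kilobase of its unshared bases it stood at place 5 with 53.3 in shWNK1 cells and at place 3 with 109 in NS cells, so its place is not known.

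**Figure D4:**
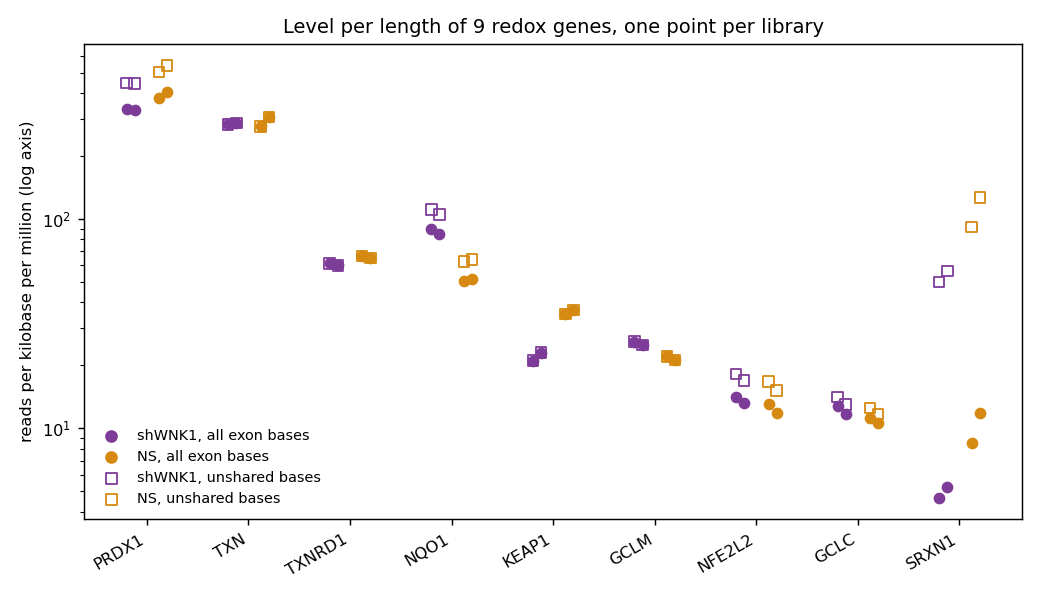
Level per kilobase of the 9 genes (RPKM, log axis), 1 point per library, for all exon bases (filled circles) and for exon bases shared with no other gene (open squares), shWNK1 in purple and NS in orange. SRXN1 moves from place 9 to place 5 in shWNK1 cells and place 3 in NS cells when only its 236 unshared bases are used, while the levels of KEAP1, TXNRD1, TXN and GCLM, which share no exon bases, are the same by both measures.

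Summed by role, the thioredoxin genes TXN, TXNRD1, PRDX1 and SRXN1 held 1212 and 1207 CPM in shWNK1 cells, against 1316 and 1385 CPM in NS cells. The glutathione ligase genes GCLC and GCLM held 251 and 237 CPM in shWNK1 cells, against 217 and 206 CPM in NS cells. The sum over all 9 members was 1884 and 1851 CPM in shWNK1 cells, against 1883 and 1943 CPM in NS cells. The total thus overlapped between the groups. The thioredoxin genes had 64.3% and 65.2% of the total in shWNK1 cells and 69.9% and 71.3% in NS cells. NQO1 alone had 14.1% and 13.6% in shWNK1 cells and 7.95% and 7.91% in NS cells. These are shares of counts and not of transcripts, because CPM are not per kilobase and most of SRXN1 could not be counted.

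The genes whose pattern over the 4 libraries lay closest to each member were found among 9118 other tested genes averaging 10 CPM or more, by Euclidean distance between centred log2 CPM. For KEAP1 these were CHD3 (distance 0.028) and IGF2BP2 (0.0415), and for NQO1 SAMD8 (0.031) and BCL3 (0.0356). For SRXN1 they were MRPL14 (0.102) and VWCE (0.106), the most distant neighbours of any member. The other 6 members had closer neighbours, among them C1GALT1 for NFE2L2 (0.00628), FLOT1 for TXNRD1 (0.0062), PPP1CA for TXN (0.00867), ERLEC1 for GCLC (0.0107), DHX57 for GCLM (0.00802) and UMPS for PRDX1 (0.00813). With 4 libraries such closeness is a description of these libraries.

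Around the members, 103 of 120 other genes, in 7 lists named for NRF2 and redox roles, were tested. Of these 18 were called higher (17.5%, against 18.5% of all tested genes) and 35 lower (34%, against 20.2%), with a median log2 fold change of -0.08, against 0.005 over all tested genes. Some genes, PGD and ME1 among them, stand in more than 1 list. Here too, the shares over all tested genes were not matched for level.

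Of 12 NRF2 control genes, 3 rose, 3 fell and 6 were not called (median 0.07). Each direction held 25% of them, against 18.5% higher and 20.2% lower among all tested genes. SQSTM1, the autophagy receptor p62 that competes with NRF2 for KEAP1, had 1137 and 1196 CPM in shWNK1 cells, against 644 and 693 CPM in NS cells, and rose by 0.80 on the log2 scale (edgeR adjusted p = 5e-13, SE 0.057). NFE2L1, a related factor that drives proteasome genes, rose by 0.54, and MAFF, a small MAF partner, by 1.12. NFE2L3 fell by 0.54, the small MAF gene MAFK by 0.37 and the repressor gene BACH2 by 0.25 (adjusted p = 0.0487, lost under 8 of 12 alternatives). BACH1, the repressor that competes with NRF2 at its elements, had 65.9 and 66.3 CPM in shWNK1 cells, between 69.9 and 51.5 CPM in NS cells, and was not called. Without NS replicate 1 the number of risers was 6, BACH1 among them at 0.36 (adjusted p = 0.00049), and without NS replicate 2 BACH1 stood at -0.08.

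Of 24 other NRF2 targets, 19 were tested, of which 5 rose, 7 fell and 7 were not called (median -0.01). Risers made up 26.3% and fallers 36.8% of those tested, against 18.5% and 20.2% of all tested genes. FTH1, the ferritin heavy chain, had 2058 and 2027 CPM in shWNK1 cells, against 1094 and 1167 CPM in NS cells, and rose by 0.85 on the log2 scale (edgeR adjusted p = 6.3e-14, SE 0.056). Its light chain partner FTL, at 518 and 548 CPM in shWNK1 cells and 587 and 623 CPM in NS cells, fell by 0.18 (adjusted p = 0.011; 0.307 without shWNK1 replicate 1 and 0.0721 without shWNK1 replicate 2). OSGIN1, a growth inhibitor induced by oxidative stress, rose by 1.29. HMOX1, heme oxygenase 1 and a much used NRF2 target, had 206 and 196 CPM in shWNK1 cells, against 234 and 244 CPM in NS cells, and fell by 0.25 (adjusted p = 0.0013, but 0.0902 without shWNK1 replicate 2). AKR1A1 fell by 0.72, ME1 by 0.42 and PGD by 0.34, and the cystine carrier gene SLC7A11, at 21.3 and 20.5 CPM in shWNK1 cells and 24.0 and 22.7 CPM in NS cells, was not called. BEST1, on the opposite strand, shares 63.2% of the exon bases of FTH1, so its level is uncertain to that extent. NQO1 and HMOX1, both read as NRF2 targets, thus changed in opposite directions.

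Of 32 other glutathione genes, 26 were tested, of which 5 rose, 10 fell and 11 were not called (median -0.12). Risers made up 19.2% and fallers 38.5% of those tested, against 18.5% and 20.2% of all tested genes. CHAC1, which degrades glutathione, had 25.7 and 21.6 CPM in shWNK1 cells, against 9.09 and 6.91 CPM in NS cells, and rose by 1.56 on the log2 scale (edgeR adjusted p = 1.5e-09, SE 0.157). GSS, glutathione synthetase, which completes what the GCLC and GCLM ligase begins, rose by 0.39, and MGST3 by 0.43. GLRX3 fell by 0.61, GGCT, another enzyme of glutathione breakdown, by 0.64 and MGST1 by 0.40. GSR, the reductase of oxidised glutathione, with a log2 fold change of 0.21 (adjusted p = 0.0593), and GPX4, the lipid peroxide reductase, with 0.14 (adjusted p = 0.122), were not called. Without shWNK1 replicate 1 the number of risers was 3 and without shWNK1 replicate 2 that of fallers was 5, and GSR was called without NS replicate 2 (0.25, adjusted p = 0.0326). GSTP1, a well known NRF2 target in other tissues, had at most 2 counts in a library.

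Of 22 other thioredoxin and peroxiredoxin genes, 20 were tested, of which 3 rose, 8 fell and 9 were not called (median -0.10). Risers made up 15% and fallers 40% of those tested, against 18.5% and 20.2% of all tested genes. TXNIP, which binds and inhibits thioredoxin, had 204 and 185 CPM in shWNK1 cells, against 81.1 and 83.3 CPM in NS cells, and rose by 1.24 on the log2 scale (edgeR adjusted p = 9.1e-16, SE 0.069), beside a TXN transcript that was not called. Sestrins, stress proteins that also act on nutrient signalling, were split, with SESN2 rising by 1.39 and SESN1 by 0.37 (adjusted p = 0.0299, lost under 5 of 12 alternatives), while SESN3 fell by 0.64. TXNDC17 fell by 1.56, with 34.6% of its exon bases shared with MED31 on the opposite strand. Among the other peroxiredoxins PRDX3 fell by 0.32, PRDX4 by 0.25 and PRDX6 by 0.26, as PRDX1 did, whereas PRDX2 (-0.05) and PRDX5 (0.01) were not called. PRDX4 lost its call without shWNK1 replicate 1 (adjusted p = 0.234) and PRDX6 without shWNK1 replicate 2 (adjusted p = 0.0517). PRDX5 stood at -0.20 without NS replicate 1 and at 0.25 without NS replicate 2, called both times. TXNRD2, the mitochondrial reductase, had 40.0 and 41.3 CPM in shWNK1 cells, between 36.9 and 46.6 CPM in NS cells, and was not called. Without NS replicate 2 the number of risers of this list was 5, and without shWNK1 replicate 1 that of fallers was 4.

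**Figure D5:**
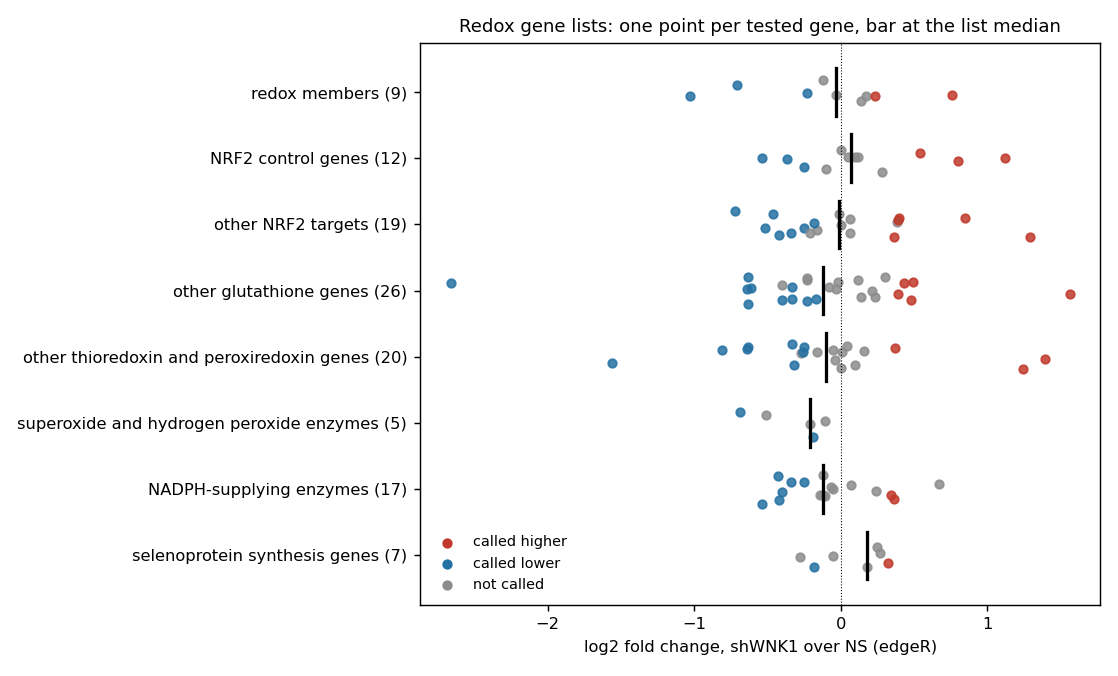
Log2 fold change, shWNK1 over NS, of every tested gene of the 9 members and of 7 other redox lists (1 point per gene, colour by call; number of tested genes in brackets; black bar at the list median). Each list but that of superoxide and hydrogen peroxide enzymes holds genes called in both directions, and the medians lie between -0.21 and 0.18; the lowest point, at -2.66, is MGST2, which had at most 1.29 CPM in a library.

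Of the 5 tested superoxide and hydrogen peroxide enzymes 2 fell (40%, against 20.2% of all tested genes) and the other 3 were not called. SOD1, the cytosolic superoxide dismutase, had 165 and 159 CPM in shWNK1 cells, against 243 and 280 CPM in NS cells, and fell by 0.69 on the log2 scale (edgeR adjusted p = 6.3e-10, SE 0.066). PARK7 fell by 0.19 (adjusted p = 0.0189, lost under 5 of 12 alternatives), and CAT, catalase, was not called (-0.11). SOD2 could not be matched by its symbol and was not analysed here. Of 17 genes listed as NADPH-supplying enzymes, 2 rose (11.8%, against 18.5% of all tested genes) and 6 fell (35.3%, against 20.2%), with a median of -0.12. ALDH1L2 rose by 0.34, while NNT, the mitochondrial transhydrogenase, fell by 0.54, MTHFD2 by 0.43 and ME1 by 0.42. Of 7 tested genes of selenoprotein synthesis, which TXNRD1 needs, SEPHS2 rose by 0.32 and SEPHS1 fell by 0.18 (adjusted p = 0.0497, lost under 7 of 12 alternatives). Each direction held 14.3% of this list, against 18.5% higher and 20.2% lower among all tested genes.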

How the data were processed

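Values are raw counts for each gene as the authors deposited them, from featureCounts 2.0.0 with GENCODE v34, without strand and with a mapping quality of at least 20, per the file headers. Reads were processed with Trimmomatic and STAR on hg38, per the submitters' processing notes; their versions are not given in the sources used here. One gene broken over 3 lines and 45 Y copies of pseudoautosomal genes were left out. Counts were filtered with filterByExpr, scaled by TMM and given to glmQLFit (robust) and glmQLFTest (two-sided) in edgeR 4.0.16 (R 4.3.3). Group was the only term, with 2 residual degrees of freedom and Benjamini-Hochberg adjustment over 14864 genes. The test and the intervals add degrees of freedom borrowed across all tested genes, so neither rests on a gene's own spread alone. The steps were tested on simulated data. Alternatives were DESeq2 1.42.0, limma-voom (limma 3.58.1), other scalings and filters, a replicate block, scaling without immunoglobulin and mitochondrially encoded genes, and leaving out each library. Only counting error is covered by the 3-count floor. The members and lists were chosen with earlier results of these data known. Named genes were the members, WNK1, up to 3 called genes per list and direction by smallest p, and a fixed panel; FTL, PRDX4, MGST2 and GSTP1 were added after their values were seen. Not every gene that this rule names is reported here.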

Additional observations from a re-analysis of the deposited data

How the results depend on the processing

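KEAP1 (-0.78 to -0.64), NQO1 (0.73 to 0.80) and SRXN1 (-1.25 to -0.77) kept their direction and their call under all 12 alternatives run. Leaving out each library in turn gave 1632 to 2778 genes called higher and 1964 to 3024 lower, and among the members 1 to 4 higher and 2 to 4 lower. The same exclusions gave log2 fold changes of 0.07 to 0.21 for NFE2L2, -0.13 to -0.10 for TXNRD1, -0.11 to 0.05 for TXN, 0.11 to 0.22 for GCLC, 0.21 to 0.27 for GCLM and -0.28 to -0.17 for PRDX1. They also gave -0.08 to 0.36 for BACH1, -0.20 to 0.15 for TXNRD2, -0.13 to 0.05 for PRDX2 and -0.20 to 0.25 for PRDX5. Log2 ratios ranged from 0.73 to 0.96 for NFE2L2 over KEAP1, -0.98 to -0.60 for SRXN1 over PRDX1, -0.10 to -0.04 for GCLC over GCLM and -0.00 to 0.18 for TXN over TXNRD1. Risers numbered 3 to 6 among NRF2 control genes, 3 to 7 among glutathione genes and 2 to 5 among thioredoxin and peroxiredoxin genes. Fallers numbered 5 to 10 among glutathione genes, 4 to 9 among thioredoxin and peroxiredoxin genes, 1 to 3 among superoxide and hydrogen peroxide enzymes and 0 to 2 among selenoprotein synthesis genes. With upper-quartile factors TXN stood at 0.01, TXNRD2 at 0.00 and GCLC at 0.21 (adjusted p = 0.025), with 8 glutathione and 3 selenoprotein synthesis genes called higher and 1 superoxide enzyme lower. Selenoprotein synthesis genes called lower numbered 0 with DESeq2, with upper-quartile factors, with no low-count filter and with the replicate block, and 2 with RLE factors and with the filter of 1 CPM. PRDX5 stood at -0.00 with no low-count filter. The place of SRXN1 by level, 9 in both groups, was 5 in shWNK1 cells and 3 in NS cells per kilobase of unshared exon, an alternative chosen after seeing the data. Deviations of same-numbered libraries correlated at 0.00422 over 9175 genes, so no shared shift was seen. This cannot tell whether the libraries were prepared in pairs, and their labels share the letters A and B across the groups. With the replicate block 2539 genes were called higher and 2804 lower, with no member's call changed. The causes of these shifts were not tested; with 2 libraries a group, the leave-one-out fits assume that the lone library varies like the other group.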
